A study of Mus musculus with 7 samples.

Results

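The genes described here are the members of the AP-1, Maf, Egr, Nr4a, Ier, Dusp, Klf, Cebp, Myc, Btg and Gadd45 families that are listed in a table of genes differing between Abca12-deficient and control mouse epidermis. They were picked by the start of their symbols, which matched 44 of the 7091 genes listed. Symbols of this kind number 96 in the annotation used, and members that are not listed (Junb, Jund, Ier2, Klf5 and Myc among them) have no value here. Values per library are always given in the order control 1, 2, 3 and KA 1, 2, 3, 4. RNA was sequenced from epidermis separated from telogen (resting-phase) skin of 7 mice, each giving 1 library. The 4 KA mice have the genotype K14-CreERT;ABCA12-cKO, in which the keratin 14 promoter of basal keratinocytes drives a recombinase that tamoxifen activates. The 3 controls have the genotype ABCA12-c/c and no CreERT. All 7 mice received tamoxifen at 8 weeks of age, 1 mg per 40 g of body weight on each of 3 days, and were sampled 2 weeks later. KA 1 and KA 2 were males, KA 3 and KA 4 females, control 2 a male, and controls 1 and 3 females. Recombinase and deletion come together in KA mice, so the effects of each cannot be told apart.

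The table holds genes with an adjusted p-value under 0.05 in the authors' own test of KA against control, and 36.5% of the 19407 genes in that test met it. A difference between the groups is therefore a condition for being listed, and the values below describe its size and direction. The largest adjusted p-value of the authors' deposited table among the 44 genes was 0.0305, for Cebpd. Reads in listed genes came to between 9590718 and 12761458 per library, and the authors' size factors lay between 0.888 and 1.25. Fold changes are from a refit of the counts with edgeR, and with the authors' size factors they were higher by a median of 0.13 on the log2 scale. Exons of 15 of the 44 genes overlap another gene on the opposite strand (Cebpa, Cebpb, Cebpd, Dusp1, Dusp5, Dusp8, Fosl1, Gadd45a, Gadd45gip1, Jun, Klf3, Klf7, Maf, Mafk and Mycbp), and the strand setting of the counting is not given in the sources used here. Their values are uncertain to that extent. The keratinocyte markers chosen for this tissue had 7 of 8 genes listed, with summed levels of 618944 to 752001 normalised reads in controls and 1067700 to 1147350 in KA. Of these 5 were higher, Krt14 (log2 fold change 1.45) and Krt1 (2.25) among them, and Krt15 (-2.25) and Lor (-1.97) were lower.

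AP-1 is a family of dimers built from basic leucine zipper (bZIP) proteins, in which a Jun protein pairs with a Fos, Atf or related partner on DNA. Many of these genes are immediate early genes, whose transcription starts within minutes of a growth factor, a wound or a stress through MAP kinases and through the factors SRF and CREB. Egr1 and the Nr4a receptors respond in the same way, and Dusp phosphatases and Btg proteins then damp the signal. Separating or digesting tissue also induces them. In epidermis, some relatives belong to the differentiation programme: Klf4 is required for the barrier, Maf and Klf3 act in late differentiation, and Cebpa and Cebpb restrain growth as keratinocytes leave the basal layer.

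Shown first are promoters of some members with at least 2 matches to the core of the cAMP response element, which CREB and Atf proteins recognise. Matches were counted on both strands, and the 2 of Btg2 are the strands of 1 complete element. Nr4a2, Btg1, Maff, Dusp8 and Klf15 also hold at least 2 matches and are not printed. Fos, Dusp1, Nr4a1 and Btg2 were lower in KA, and Cebpb was higher. Each line is the 250 bases before the RefSeq transcription start on GRCm38.p6, written 5′ to 3′ on the gene's strand, with capitals for TGACG on either strand, or TGACGTCA where the complete element is present.
Fos, chr12:85473640-85473889, plus strand: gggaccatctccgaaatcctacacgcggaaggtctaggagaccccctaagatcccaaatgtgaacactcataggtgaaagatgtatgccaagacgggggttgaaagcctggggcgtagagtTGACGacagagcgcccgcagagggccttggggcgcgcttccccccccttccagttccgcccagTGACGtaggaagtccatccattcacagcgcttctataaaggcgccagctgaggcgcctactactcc
Dusp1, chr17:26508473-26508722, minus strand: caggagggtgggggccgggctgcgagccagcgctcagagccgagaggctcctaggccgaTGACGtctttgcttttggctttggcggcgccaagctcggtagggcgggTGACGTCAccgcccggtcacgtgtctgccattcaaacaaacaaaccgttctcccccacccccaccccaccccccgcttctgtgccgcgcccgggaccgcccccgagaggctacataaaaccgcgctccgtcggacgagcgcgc
Nr4a1, chr15:101266596-101266845, plus strand: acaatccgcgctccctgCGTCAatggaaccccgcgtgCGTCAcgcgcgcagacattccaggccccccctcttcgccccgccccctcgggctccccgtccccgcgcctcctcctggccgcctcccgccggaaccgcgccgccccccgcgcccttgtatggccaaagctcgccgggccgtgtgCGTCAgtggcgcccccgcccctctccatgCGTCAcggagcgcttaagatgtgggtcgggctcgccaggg
Btg2, chr1:134079156-134079405, minus strand: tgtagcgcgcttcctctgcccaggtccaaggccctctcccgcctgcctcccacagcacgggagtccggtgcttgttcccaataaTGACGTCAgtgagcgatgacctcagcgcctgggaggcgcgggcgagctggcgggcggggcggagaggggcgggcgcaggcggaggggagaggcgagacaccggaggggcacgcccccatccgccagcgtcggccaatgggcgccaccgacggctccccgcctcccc
Cebpb, chr2:167688665-167688914, plus strand: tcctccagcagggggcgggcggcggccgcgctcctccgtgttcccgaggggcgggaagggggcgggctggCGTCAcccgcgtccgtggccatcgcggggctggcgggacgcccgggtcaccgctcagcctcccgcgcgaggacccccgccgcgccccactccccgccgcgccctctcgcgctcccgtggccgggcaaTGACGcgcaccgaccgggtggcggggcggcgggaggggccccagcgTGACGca

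The 44 genes split into 28 that were lower in KA and 16 that were higher, and the lower ones included the most abundant immediate early genes. All 44 passed the filter on low counts. In the refit 43 passed an adjusted p-value of 0.05 (quasi-likelihood test of edgeR, Benjamini-Hochberg adjustment over 6761 genes), 28 lower and 15 higher, against 91.5% of all tested genes (47.5% lower and 44.0% higher). Because the genes were listed for a difference, these shares say nothing about the families. The median log2 fold change was -0.70 over the 44 genes and 0.22 over all tested genes. Differences of at least 1 on the log2 scale were found in 15 lower and 7 higher members in the refit, where 24.6% and 16.9% of all tested genes had them. This split depends on the scaling. In the authors' deposited values Egr1 (-0.99), Jun (-0.97) and Nr4a2 (-0.93) fell short of that size. Cebpd (1.11), Dusp4 (1.02) and Gadd45gip1 (1.11) reached it there. No member changed direction under any scaling or test tried. In the authors' normalised reads, as in the plot of all members by library, the groups did not overlap in 39 of 44, against 93.5% of tested genes. All KA libraries lay above all controls in 13 members (49.0% of tested genes) and below them in 26 (44.5%).

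**Figure D1:**
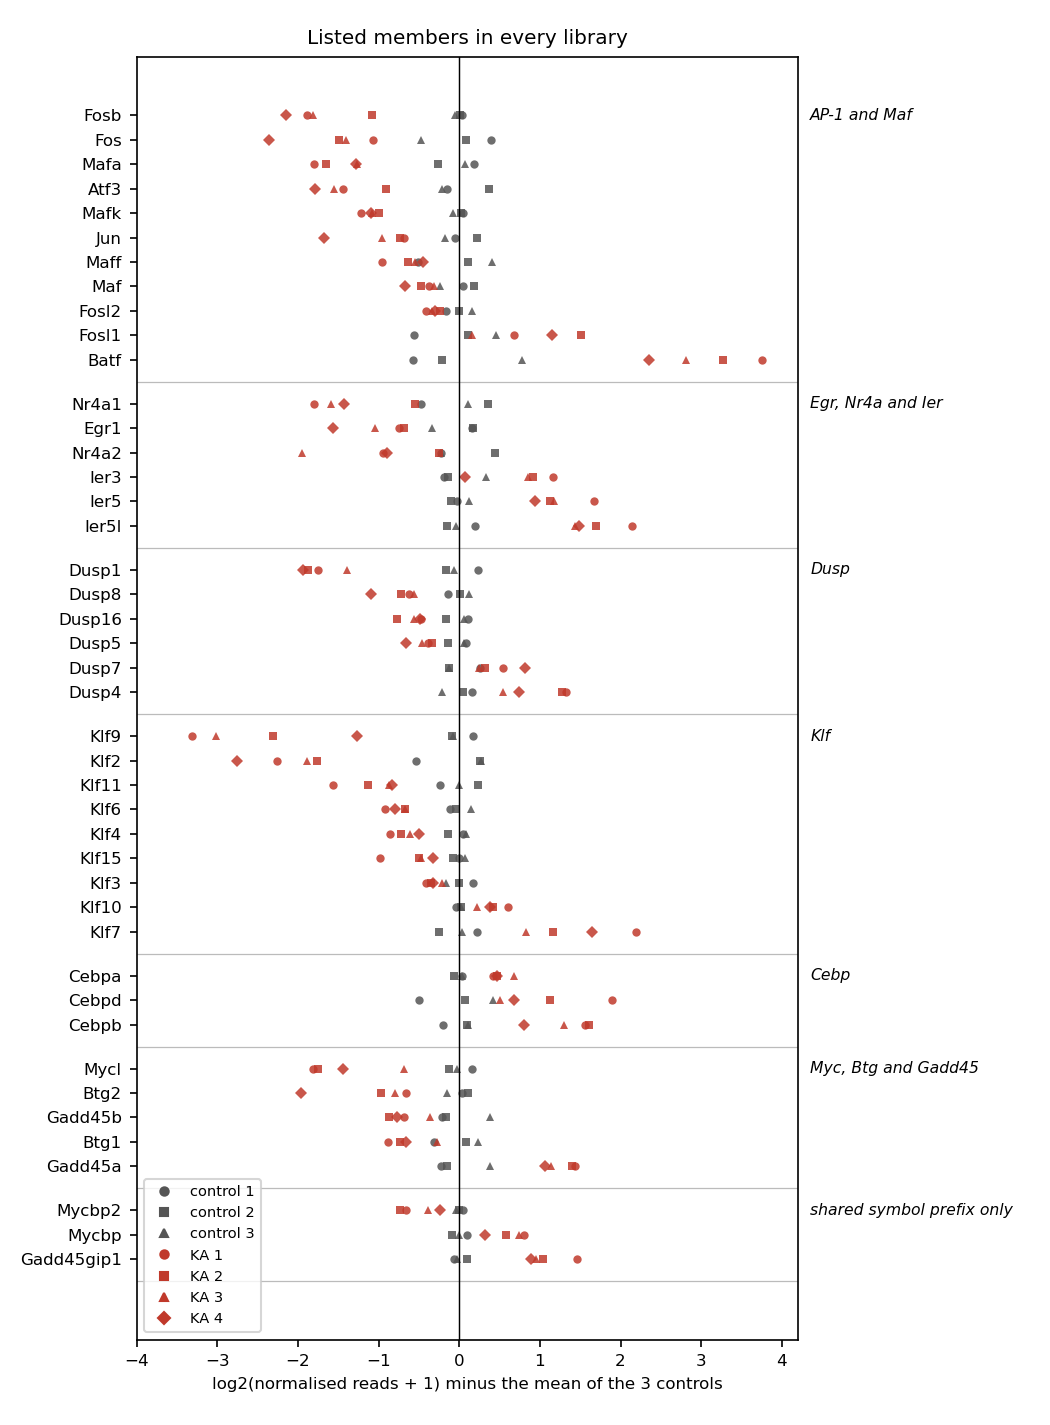
Each row is a member (43 are drawn) and each point a library, placed at log2(normalised reads + 1) minus the mean of the 3 controls, with controls in grey and KA in red. Rows are grouped by role. Fos, Fosb, Atf3, Dusp1, Klf2 and Klf9 lie to the left in all 4 KA libraries, and Batf, Ier5, Cebpb and Klf7 to the right.

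Among the AP-1 subunits, the Fos family was listed in full (4 of 4) and was not uniform. Fos (ENSMUSG00000021250, chromosome 12, 85473890 to 85477273, plus strand), the classical immediate early partner of Jun, had 15652, 12599.8 and 8577 normalised reads in the 3 controls and 5661, 4225, 4519 and 2329 in the 4 KA libraries. All KA libraries lay below all controls, and KA 4 was the lowest of the 7. This gave a log2 fold change of -1.70 (SE 0.28, edgeR adjusted p = 0.000509). Fosb (ENSMUSG00000003545, chromosome 7, 19302696 to 19310051, minus strand), a close relative induced by the same stimuli, had 11113, 10924 and 10405 normalised reads in the 3 controls and 2931, 5123, 3072 and 2445 in the 4 KA libraries. Its controls were close together, whereas KA 2 stood at 5123 and the other KA libraries at 3072 or less. The difference was a log2 fold change of -1.81 (SE 0.22, edgeR adjusted p = 9.84e-05). Fosl2, a Fos relative present in differentiating keratinocytes, was lower by less, with 5704 ± 648 normalised reads (SD, n = 3) in controls and 4547 ± 226 (SD, n = 4) in KA and a log2 fold change of -0.46 (SE 0.11, edgeR adjusted p = 0.00401). Fosl1, known for activated and migrating keratinocytes, went the other way, with 101, 163 and 206 normalised reads in the 3 controls and 242, 432, 168 and 334 in the 4 KA libraries. The groups overlapped, because KA 3 lay below control 3, and a log2 fold change of 0.77 (SE 0.33, edgeR adjusted p = 0.0444) was the weakest call among the subunits. That call was lost with limma-voom (adjusted p = 0.0602), with RLE factors (0.053), and without control 1 (adjusted p = 0.14), control 2 (0.0834), KA 2 (0.124) or KA 4 (0.09).

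Jun (ENSMUSG00000052684, chromosome 4, 95049034 to 95052222, minus strand), the only one of the 3 Jun genes listed, had 6111, 7356 and 5619 normalised reads in the 3 controls and 3924, 3805, 3252 and 1981 in the 4 KA libraries. No KA library reached the lowest control, and KA 4 was again the lowest. It gave a log2 fold change of -1.11 (SE 0.21, edgeR adjusted p = 0.000878). Atf3 (ENSMUSG00000026628, chromosome 1, 191170296 to 191218039, minus strand), a stress-induced bZIP factor that can repress its targets, had 5052, 7288 and 4854 normalised reads in the 3 controls and 2069, 2994, 1927 and 1634 in the 4 KA libraries. Control 2 and KA 2 were the highest of their groups. The comparison gave a log2 fold change of -1.55 (SE 0.21, edgeR adjusted p = 0.000175). Batf (ENSMUSG00000034266, chromosome 12, 85686669 to 85709087, plus strand), a bZIP protein best known from lymphocytes and dendritic cells, showed the largest rise of all members, from a very low level. Its values were 3.79, 5.15 and 11.2 normalised reads in the 3 controls and 95, 67.6, 49.1 and 35.3 in the 4 KA libraries, with a log2 fold change of 3.00 (SE 0.48, edgeR adjusted p = 0.000379). Without control 3, the highest control, the log2 fold change was 3.65, and among the 4 mice with the lower animal numbers alone it was 4.01.

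The Maf proteins are bZIP factors too. Maf, a large Maf protein with an activation domain, was modestly lower, with 1891 ± 277 normalised reads (SD, n = 3) in controls and 1376 ± 148 (SD, n = 4) in KA and a log2 fold change of -0.60 (SE 0.14, edgeR adjusted p = 0.00285). Mafa, a large Maf gene best known from the pancreas and lens, was low in abundance and lower still in KA, with 148 ± 23.1 normalised reads (SD, n = 3) in controls and 52.1 ± 9.73 (SD, n = 4) in KA and a log2 fold change of -1.64 (SE 0.24, edgeR adjusted p = 0.000252). The small Maf proteins lack an activation domain and partner with factors such as Nfe2l2. Mafk had 1461, 1437 and 1346 normalised reads in the 3 controls and 606, 711, 667 and 662 in the 4 KA libraries. It was the most even of the 44 genes, with a within-group SD of 0.083 on the log2 scale, and gave a log2 fold change of -1.23 (SE 0.12, edgeR adjusted p = 2.85e-05). Maff was lower as well, with overlapping groups and a log2 fold change of -0.81 (SE 0.21, edgeR adjusted p = 0.00472).

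Batf and Maf are also expressed by leukocytes, and in bulk tissue fewer cells of a type and less RNA per cell cannot be told apart. Of the T cell markers, 8 of 13 were listed, 4 higher and 4 lower in the authors' deposited table, and their summed level ran from 1576 to 2003 normalised reads in controls and from 1341 to 1488 in KA. Myeloid and neutrophil markers had 7 of 12 listed, 4 higher, Csf1r (log2 fold change 0.84) and Cxcr2 (7.04) among them, and 3 lower, Cd68 (-0.78), Adgre1 (-1.56) and Fcgr3 (-1.55), with sums of 1004 to 1311 in controls and 1849 to 2448 in KA. Langerhans cell markers had 7 of 7 listed, all higher, with sums of 24924 to 34463 and 58018 to 88206. The largest parts in KA were Cd74 (means of 12237 normalised reads in controls and 28021 in KA), Mfge8 (909 and 15970) and H2-Ab1 (6517 and 13858). Cd207 was a small part of the sums, at 699 and 1369 (log2 fold change 0.83). Within KA the order of the Langerhans cell marker sums, KA 1, KA 2, KA 3 and KA 4, was also the order of Batf. The order was not particular to Langerhans cell markers. It was also that of the myeloid and neutrophil, keratinocyte and adipocyte sums. Among the 16 members higher in KA, KA 1 was the highest KA library in 12. No listed marker was at 0 in all controls, and none of the 8 fibroblast, 6 muscle or 5 mast cell markers was listed. Melanocyte markers had 2 of 6 listed, both lower, with sums of 328 to 551 in controls and 247 to 335 in KA, and adipocyte markers 1 of 5, higher, at 1.89 to 9.28 and 15.6 to 41.5. The part of other cell types in the levels of Batf and Maf was not tested.

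The listed Egr, Nr4a and Ier genes were split evenly, 3 lower and 3 higher. Egr1 (ENSMUSG00000038418, chromosome 18, 34859823 to 34864984, plus strand), a zinc finger factor, was the most abundant of them. It had 21699, 21848 and 15338 normalised reads in the 3 controls and 11549.6, 12041, 9438 and 6558 in the 4 KA libraries. Every KA library was below the lowest control, at a log2 fold change of -1.13 (SE 0.21, edgeR adjusted p = 0.000825). Nr4a1 (ENSMUSG00000023034, chromosome 15, 101254269 to 101274795, plus strand), an orphan nuclear receptor, had 4879.5, 8652 and 7312 normalised reads in the 3 controls and 1941, 4606, 2251 and 2510.4 in the 4 KA libraries. In both groups the library numbered 2 was the highest, and KA 2 came close to control 1 without reaching it. The difference was a log2 fold change of -1.43 (SE 0.30, edgeR adjusted p = 0.00186). Nr4a2, its relative, ran at a much lower level, with 116, 185 and 116 normalised reads in the 3 controls and 70.2, 114, 34.5 and 72.7 in the 4 KA libraries. It gave a log2 fold change of -1.07 (SE 0.35, edgeR adjusted p = 0.0137), and without control 2 the call was lost (adjusted p = 0.0661).

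The Ier genes are named as immediate early response genes, and the 3 that were listed were all higher. Ier5 (ENSMUSG00000056708, chromosome 1, 155096361 to 155099636, minus strand), which is linked to heat shock factor activity, had 757, 716 and 840.5 normalised reads in the 3 controls and 2460.1, 1684, 1746 and 1479 in the 4 KA libraries. All KA libraries exceeded all controls, with a log2 fold change of 1.12 (SE 0.16, edgeR adjusted p = 0.000213). Ier5l, its relative, rose by more, with 172 ± 21.3 normalised reads (SD, n = 3) in controls and 564 ± 134 (SD, n = 4) in KA, at a log2 fold change of 1.57 (SE 0.19, edgeR adjusted p = 9.01e-05). Ier3, which modulates cell death and ERK signalling, had 830.3, 857 and 1193 normalised reads in the 3 controls and 2125, 1780.1, 1709.8 and 998 in the 4 KA libraries. KA 4 fell inside the range of the controls, and the comparison gave a log2 fold change of 0.65 (SE 0.22, edgeR adjusted p = 0.019). The call for Ier3 was lost without control 1 (adjusted p = 0.0651) or control 2 (0.0673).

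Dusp phosphatases remove phosphate from MAP kinases, and 6 of the 24 numbered Dusp genes were listed. Dusp1 (ENSMUSG00000024190, chromosome 17, 26505590 to 26508519, minus strand), an inducible nuclear phosphatase of p38 and JNK, had 9311, 7028 and 7527 normalised reads in the 3 controls and 2341, 2149.7, 3014 and 2059.8 in the 4 KA libraries. The highest KA library, KA 3, stayed far below the lowest control. With a log2 fold change of -1.87 (SE 0.17, edgeR adjusted p = 2.03e-05) it had the smallest adjusted p-value of all members. Dusp8 and Dusp16, which also act on p38 and JNK, were lower too, at -0.87 and -0.71 on the log2 scale, and so was the ERK phosphatase Dusp5 at -0.60. The ERK phosphatase Dusp4 was low in abundance and higher in KA, with 45.9 ± 6.05 normalised reads (SD, n = 3) in controls and 92.7 ± 24.5 (SD, n = 4) in KA and a log2 fold change of 0.87 (SE 0.27, edgeR adjusted p = 0.0116). Dusp7, a cytoplasmic ERK phosphatase, had 3644, 2795 and 2804 normalised reads in the 3 controls and 4452, 3819, 3634 and 5380.0 in the 4 KA libraries. KA 3 and control 1 overlapped, and it was the member that did not pass in the refit, at a log2 fold change of 0.35 (SE 0.17, edgeR adjusted p = 0.0655), although it passed with the authors' size factors (0.0149), without control 1 (0.0171) and without KA 3 (0.0408).

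Klf factors are zinc finger proteins that bind GC-rich and CACCC sequences, and 9 of 17 were listed, 7 lower and 2 higher. The groups did not overlap in any of these 9, nor in 93.5% of all tested genes. Klf4 (ENSMUSG00000003032, chromosome 4, 55527143 to 55532466, minus strand), the barrier factor, had 22503, 19722 and 23032 normalised reads in the 3 controls and 11973, 13191, 14211 and 15375 in the 4 KA libraries. Its libraries were tight, with a within-group SD of 0.142 on the log2 scale, and the comparison gave a log2 fold change of -0.80 (SE 0.14, edgeR adjusted p = 0.000602). Klf3 and Klf6 were lower with similarly small spread, at -0.47 and -0.90. The largest falls were in a pair of less abundant genes. Klf9 (ENSMUSG00000033863, chromosome 19, 23141226 to 23166911, plus strand), which responds to glucocorticoids and the circadian clock and restrains keratinocyte growth, had 1208, 1010.3 and 1023 normalised reads in the 3 controls and 108, 217, 133 and 445 in the 4 KA libraries. KA 4 held 4.13 times the level of KA 1, and the comparison gave a log2 fold change of -2.38 (SE 0.43, edgeR adjusted p = 0.00118). Klf2 (ENSMUSG00000055148, chromosome 8, 72319033 to 72321656, plus strand), a factor of quiescent T cells and endothelium, had 561, 979 and 988 normalised reads in the 3 controls and 169, 239, 220.4 and 120.4 in the 4 KA libraries, at a log2 fold change of -2.30 (SE 0.26, edgeR adjusted p = 6.9e-05). Endothelial markers had 2 of 6 listed, both higher (Pecam1 and Egfl7), with sums of 11.4 to 28.9 in controls and 51.2 to 84.1 in KA. The listed T cell markers given above had a lower sum in KA but were split, 4 higher and 4 lower. Trdc fell the most among them, from a mean of 444 normalised reads in controls to 138 in KA (log2 fold change -1.82). Cd5 rose the most (1.71). The part of these cell types in the level of Klf2 was not tested. Klf11 and Klf15 were lower at -1.21 and -0.68.

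The Klf genes that were higher were not abundant. Klf7 had 55.9, 40.2 and 48.9 normalised reads in the 3 controls and 223, 108, 85.6 and 152 in the 4 KA libraries, with a log2 fold change of 1.41 (SE 0.33, edgeR adjusted p = 0.00286). KA 1 was the highest and KA 3 the lowest of the KA libraries. Klf10, a gene induced by TGF-beta, differed little, with 609.6 ± 16.5 normalised reads (SD, n = 3) in controls and 811 ± 88.9 (SD, n = 4) in KA and a log2 fold change of 0.27 (SE 0.12, edgeR adjusted p = 0.0451). Its call was lost with DESeq2 (adjusted p = 0.0662) and without any single library other than KA 3 (0.0613 to 0.103).

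All 3 listed Cebp genes were higher in KA. Cebpb (ENSMUSG00000056501, chromosome 2, 167688915 to 167690418, plus strand) had 2624, 3232 and 3264 normalised reads in the 3 controls and 8898, 9263, 7455 and 5271 in the 4 KA libraries. Every KA library lay above every control, with KA 4 the lowest of them. The comparison gave a log2 fold change of 1.21 (SE 0.18, edgeR adjusted p = 0.000268). Cebpa (ENSMUSG00000034957, chromosome 7, 35119293 to 35121928, plus strand), its partner in keratinocyte growth arrest, was more even, with 10478, 9817 and 10486 normalised reads in the 3 controls and 13668, 14189, 16403 and 14237 in the 4 KA libraries. The difference was small at a log2 fold change of 0.38 (SE 0.12, edgeR adjusted p = 0.0148), and the call was lost without control 2 (adjusted p = 0.0604) and with the sample number as a replicate block (0.0521). Cebpd, known from acute-phase and inflammatory responses, had 349, 521 and 662 normalised reads in the 3 controls and 1835, 1078, 702 and 788 in the 4 KA libraries. KA 1 stood above the rest, and a log2 fold change of 0.96 (SE 0.32, edgeR adjusted p = 0.0156) became 0.64 without KA 1. Without control 1 the call was lost (adjusted p = 0.0619).

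**Figure D2:**
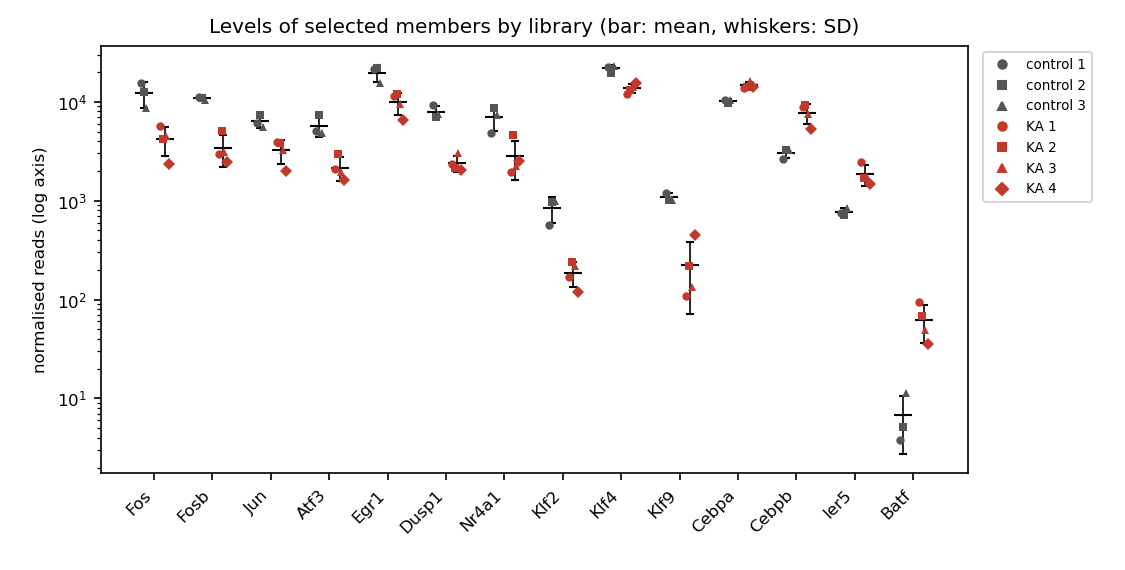
Normalised reads of 14 members on a log axis, with controls in grey and KA in red, the group mean as a horizontal bar and the SD as whiskers. Fosb and Klf9 have closely spaced controls and widely spaced KA libraries, whereas Klf4 and Cebpa are closely spaced in both groups.

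The remaining members include the Btg and Gadd45 genes, which act on growth arrest and damage responses, and Mycl. Btg1 and Btg2, which restrain proliferation, were lower in KA. Btg2 had 4236, 4461 and 3703 normalised reads in the 3 controls and 2611, 2102, 2373 and 1062 in the 4 KA libraries, with KA 4 far below the rest, and gave a log2 fold change of -1.16 (SE 0.25, edgeR adjusted p = 0.0019). Btg1 had 9699 ± 1814 normalised reads (SD, n = 3) in controls and 6232 ± 1196 (SD, n = 4) in KA, with KA 3 above control 1, and a log2 fold change of -0.76 (SE 0.18, edgeR adjusted p = 0.00294). The stress sensors Gadd45a and Gadd45b moved in opposite directions. Gadd45a had 118, 124 and 179.6 normalised reads in the 3 controls and 376, 365, 304 and 291 in the 4 KA libraries and a log2 fold change of 1.11 (SE 0.19, edgeR adjusted p = 0.000594). Gadd45b was lower, with 662 ± 160.1 normalised reads (SD, n = 3) in controls and 411 ± 66.2 (SD, n = 4) in KA and a log2 fold change of -0.82 (SE 0.18, edgeR adjusted p = 0.00224). Mycl, a relative of Myc, was the only 1 of the 3 Myc genes listed and had 3156, 2586 and 2764 normalised reads in the 3 controls and 802, 839, 1761 and 1042 in the 4 KA libraries, at a log2 fold change of -1.48 (SE 0.26, edgeR adjusted p = 0.000801). KA 3 held more than the other KA libraries. Another 3 genes share only the start of the symbol. They are Gadd45gip1, a mitochondrial ribosome protein (log2 fold change 0.97), Mycbp, a Myc-binding protein (0.48), and Mycbp2, a ubiquitin ligase (-0.62).

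Levels of different genes were compared per kilobase of the gene length given in the table. In controls Klf4 stood first at 7134 ± 583 normalised reads per kb (SD, n = 3), followed by Fos at 5220 ± 1509, Egr1 at 4377 ± 829 and Cebpa at 3892 ± 146. In KA Cebpa stood first at 5548 ± 460 (SD, n = 4) and Cebpb second at 5134 ± 1204, a difference smaller than the SD of Cebpb. Klf4 followed at 4489 ± 476, then Egr1 at 2207 ± 557 and Fos at 1779 ± 588. Egr1 and Fos differed by less than the SD of Fos in both groups. Fos thus went from rank 2 to rank 5 among the 44, Dusp1 from 5 to 12 and Fosb from 11 to 17, and Cebpb rose from 7 to 2 and Ier3 from 15 to 6.

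**Figure D3:**
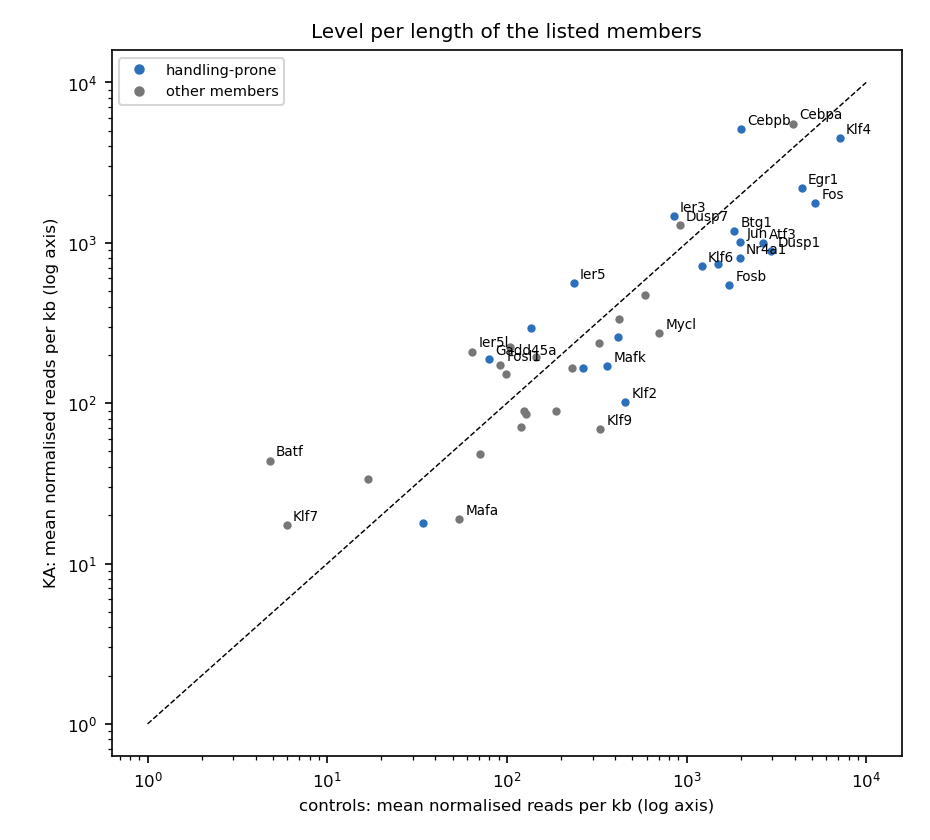
Mean level per kilobase of 43 members in controls (x axis) and KA (y axis), both on log axes in normalised reads per kb, with handling-prone genes in blue and the other members in grey. Points under the dashed line of equal levels are lower in KA. Fos, Fosb, Dusp1, Atf3 and Egr1 lie under it at high levels, and Cebpb, Cebpa and Ier3 above it.

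The members were then separated into genes prone to induction by tissue handling and regulators of keratinocyte differentiation. The handling list named 29 genes of these families, of which 21 were listed, 16 lower and 5 higher in KA (median on the log2 scale -1.07). The lower ones were Atf3, Btg1, Btg2, Dusp1, Egr1, Fos, Fosb, Gadd45b, Jun, Klf2, Klf4, Klf6, Maff, Mafk, Nr4a1 and Nr4a2. The higher ones were Cebpb, Cebpd, Gadd45a, Ier3 and Ier5. The differentiation list named 14, of which 10 were listed and split evenly: Fosl2, Klf3, Klf4, Klf9 and Maf lower, and 5 higher, Cebpa, Cebpb, Fosl1 and Klf7 among them, with a median of -0.04. Klf4 and Cebpb are on both lists, 1 in each direction. All of these members passed in the refit, as did 91.5% of all tested genes.

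Averaged over the 16 lower handling-prone genes, the log2 level relative to the mean of the controls lay between -0.10 and 0.11 in controls. It was -1.17, -0.93, -1.12 and -1.42 in KA 1 to KA 4. KA 4 was the lowest KA library in 8 of these 16 genes (50.0%), whereas over all 3364 listed genes lower in KA it was the lowest in 14.8% and KA 1 was in 57.1%. Since the 16 genes share the same 4 libraries, no test was made. In the 5 lower differentiation genes KA 4 was the least changed, at -0.61, and KA 1 the most, at -1.07, but without Klf9 (left out after the values were seen) the means were -0.51, -0.45, -0.37 and -0.45, with KA 3 the least changed. The 5 higher handling-prone genes ran from 1.55 in KA 1 down to 0.71 in KA 4. So KA 4 had the lowest mean among the KA libraries in both handling-prone groups of members, whichever their direction. This did not hold for the 22 listed handling-prone genes outside these families, whose means were -0.36, -0.26, -0.41 and -0.39 in KA 1 to KA 4, with KA 3 the lowest. The time from skin removal to lysis is not given in the sources used here, and its part in these levels was not tested.

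**Figure D4:**
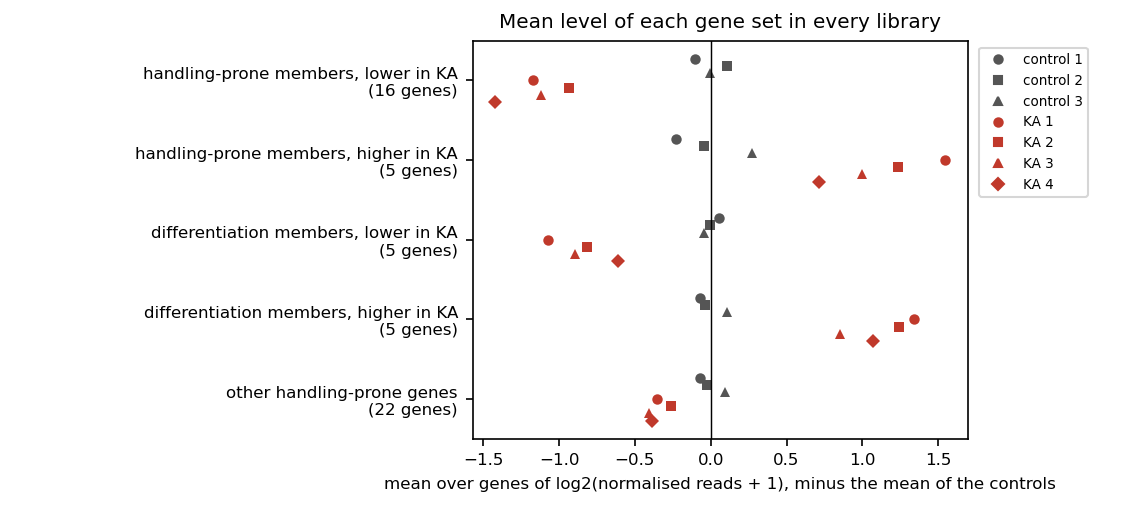
Mean over the genes of each set of log2(normalised reads + 1), relative to the mean of the controls, in every library, with controls in grey and KA in red. KA 4 is the lowest of the KA libraries in both handling-prone sets of members, and in the lower differentiation genes, with Klf9 among them, it is the KA library nearest to the controls.

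Spread between libraries of a group varied widely among the members of both lists. Among 5350 listed genes with a mean of at least 100 normalised reads, the within-group SD of Fos stood at the 94.5th percentile, Nr4a1 at 94.3, Btg2 at 93.0 and Klf2 at 92.3. Klf9 stood at 98.0 and Cebpd at 95.9. The median over the 21 handling-prone members was the 84.1st percentile, and over the 10 differentiation members the 48.6th. Over all listed genes tested, which include genes below that mean level, it was 60.8. Against the 5350 genes ranked, the differentiation members thus lay near the middle. Low spread was found in Mafk (4.0), Cebpa (6.8), Fosl2 (12.8), Klf3 (14.6), Klf6 (14.7) and Klf4 (22.3). High spread was also found in the differentiation members Klf9, Fosl1 (95.8) and Klf7 (93.7). Genes of both lists were thus found at both ends.

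Genes outside these families that are also prone to handling gave a similar balance. Of 31 named, 22 were listed, 16 lower and 6 higher (median on the log2 scale -0.75). All 22 were called, where 91.5% of all tested genes were (47.5% lower and 44.0% higher). Cyr61, a matrix protein induced by serum and by YAP, had 5091 ± 593 normalised reads (SD, n = 3) in controls and 1281 ± 291 (SD, n = 4) in KA, at a log2 fold change of -2.12 (SE 0.17, edgeR adjusted p = 1.08e-05). Errfi1, a feedback inhibitor of the EGF receptor, had 3164 ± 486 normalised reads (SD, n = 3) in controls and 1585 ± 184 (SD, n = 4) in KA and a log2 fold change of -1.13 (SE 0.14, edgeR adjusted p = 0.000108). Nfkbiz, a nuclear IkB protein of inflamed epidermis, was higher, with 1373 ± 307 normalised reads (SD, n = 3) in controls and 4272 ± 634 (SD, n = 4) in KA (edgeR adjusted p = 9.01e-05). The mRNA-destabilising protein Zfp36 (-1.33) and the kinase Sik1 (-1.87) were lower, and the chaperone Hspa8 (0.85) was higher.

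Other regulators of epidermal differentiation were also divided. Of 28 named, 14 were listed, 5 higher and 9 lower, with a median of -0.60. All 14 were called, where 91.5% of all tested genes were (47.5% lower and 44.0% higher). The Ets factors Ehf and Elf3 were the furthest up: Ehf had 340.0 ± 16.1 normalised reads (SD, n = 3) in controls and 3708 ± 927 (SD, n = 4) in KA, at a log2 fold change of 3.31 (SE 0.20, edgeR adjusted p = 1.73e-06), and Elf3 had 21.6 ± 10.2 normalised reads (SD, n = 3) in controls and 213 ± 48.9 (SD, n = 4) in KA, at a log2 fold change of 3.14 (SE 0.32, edgeR adjusted p = 3.94e-05). Ppard, a nuclear receptor for fatty acids, had 773 ± 72.6 normalised reads (SD, n = 3) in controls and 2089 ± 364 (SD, n = 4) in KA, at a log2 fold change of 1.30 (SE 0.14, edgeR adjusted p = 6.04e-05). Gata3 (-1.73) and Grhl1 (-0.56) were lower, and Ovol1 was higher (0.72).

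Phlda1, which is on the handling list and on the list of ERK targets, was higher (1.71). Genes that report on ERK signalling did not share a direction. Of 14 named outside the Dusp family, 7 were listed, 3 higher and 4 lower. All 7 were called, where 91.5% of all tested genes were (47.5% lower and 44.0% higher). The feedback inhibitors Spry2, with 1151 ± 159 normalised reads (SD, n = 3) in controls and 347 ± 25.5 (SD, n = 4) in KA, and Spry1, with 2881 ± 198 normalised reads (SD, n = 3) in controls and 794 ± 285 (SD, n = 4) in KA, were lower at -1.86 and -1.98 on the log2 scale. The Ets factor Etv4 was higher, with 293 ± 69.5 normalised reads (SD, n = 3) in controls and 976 ± 288 (SD, n = 4) in KA and a log2 fold change of 1.60 (SE 0.25, edgeR adjusted p = 0.000364). Of 32 genes of the MAP kinase cascade 12 were listed, 7 higher and 5 lower in the authors' deposited table. In the refit 9 of these 12 were called, where 91.5% of all tested genes were. Elk3, an SRF partner, was higher (1.94), as was the p38 kinase Mapk13 (0.65), and Map3k1 was lower (-1.01). Of 25 other bZIP genes 14 were listed, 7 in each direction, and all 14 were called, against the same 91.5%. Atf5 was the furthest up, with 541 ± 55.6 normalised reads (SD, n = 3) in controls and 2019 ± 344 (SD, n = 4) in KA. Tef and Dbp, clock-controlled relatives, were lower at -1.96 and -2.29.

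**Figure D5:**
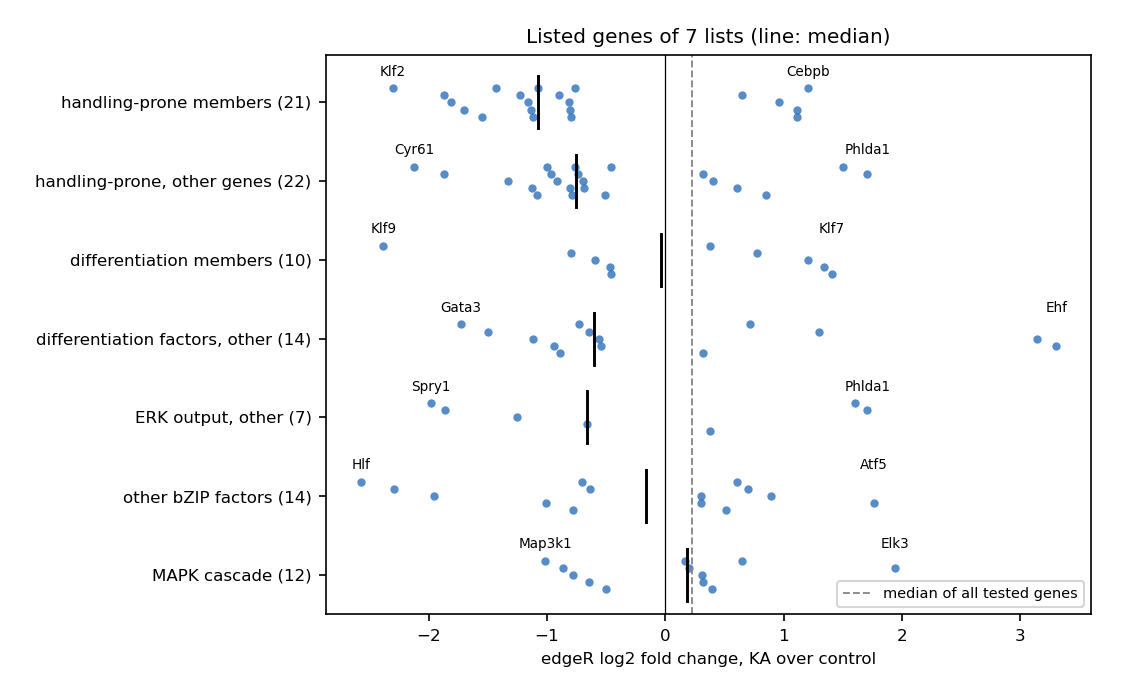
Each point is a listed gene at its edgeR log2 fold change of KA over control, with the median of its list as a black line and the median of all tested genes as a dashed line. The numbers of genes are in brackets, and the lowest and highest gene of each list is named. Both handling-prone lists have their median below -0.7, and the list of other differentiation factors reaches furthest up, to Ehf at 3.31, whereas the differentiation members reach 1.41 (Klf7).

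A RefSeq promoter entry was found for 34 of the 44 members, 24 lower and 10 higher in KA. The letters TGACG, searched on both strands in the 250 bases before the start, were present in 17 of the 24 lower genes (70.8%) and in 2 of the 10 higher ones (20.0%). They were present in 19.8% of all 27025 genes with an entry and in 27.1% of the 9555 whose window also holds the GC box GGGCGG, which 91.2% of the members have. In Fos the matches begin 66 and 129 bases before the start, and Nr4a1 holds 4 within 233 bases, as printed above. The complete element TGACGTCA, which contains TGACG on each strand, was found in Btg2, Dusp1, Dusp8 and Maff, all lower in KA. That is 11.8% of the 34 genes, against 1.77% of all genes and 2.52% of those with the GC box. The E-box CACGTG was found in 8 of the 34, all lower, against 6.86% of all genes and 8.91% of those with the GC box. The AP-1 site TGACTCA was found in 0 of the 34, in 5.16% of all genes and in 2.91% of those with the GC box. A CArG box, the SRF site, was found in Dusp5 alone among the 34. It was present in 1.62% of all genes and in 1.21% of those with the GC box. These are matches of letters in a short window and show no binding.

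The comparison of sexes did not enter the choice of the genes. The difference between males and females in the effect of genotype passed in 0 of the 44 genes (edgeR with 1 male control and 3 residual degrees of freedom), where 0.0444% of all tested genes passed. An unadjusted p-value under 0.05 was found in 1 member, Klf11, and in 3.21% of all tested genes. DESeq2 and limma-voom also called 0, each with 1 gene under 0.05 unadjusted. In Klf11 the fall was larger in males by -0.90 on the log2 scale (SE 0.32), with an adjusted p-value that did not pass in edgeR, with control 2 the highest control and KA 1 and KA 2 the lowest libraries.

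Animal numbers fall into a lower and a higher run, which the labels do not describe as batches. In the lower run (2 controls, 2 KA) the KA libraries lay beyond the controls, in the direction of the pooled fold, in 44 of 44 members (99.3% of tested genes), and 39 passed when this run was fitted alone (86.9% of tested genes). In the higher run (1 control, 2 KA) 42 did so (97.5% of tested genes), with Ier3 and Fosl1 as exceptions. Among males (1 control, 2 KA) 44 did (99.7%), and among females (2 of each) 39 did (95.7%). In females fitted alone 29 passed (61.9% of tested genes), 21 lower and 8 higher. The exceptions in females were Btg1, Dusp7, Fosl1, Ier3 and Maff. These libraries are the ones on which the genes were listed.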

How the data were processed

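RNA from the epidermis of 7 mice was sequenced, and groups, sample numbers and sexes come from the sample titles. The submitters' processing notes name fastp, STAR 2.6.1d, featureCounts 1.5.0-p3, DESeq2 1.40.2 and the build mm10, without roles. Annotation and strand setting are not given in the sources used here. The deposited table gives raw read counts per gene. The authors' normalised reads are a signal made by dividing counts by 1 size factor per sample, per the file headers and values. The deposited table also holds the authors' log2 fold change, its standard error, the test score and p-values. It lists only genes with an adjusted p-value under 0.05, so column totals are not depths, and p-values of the refit are conditional on that choice. From the deposited p-values, the authors' adjustment ran over 19407 genes.

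Counts were fitted with edgeR 4.0.16 in R 4.3.3 (filterByExpr by group, TMM factors, robust dispersions, glmQLFTest, Benjamini-Hochberg over the 6761 genes kept, threshold 0.05). Standard errors were obtained by dividing the fold change by the root of the F statistic. The filter left out 330 genes. The common dispersion corresponds to a biological coefficient of variation of 0.193. Group means were taken over normalised reads, and log2 levels use a pseudocount of 1. P-values set the difference between the groups against the spread between these animals. The code was tested on simulated counts. Alternatives were RLE and the authors' size factors, no filter, DESeq2 1.42.0, limma-voom (limma 3.58.1), a replicate block, sex or animal-number run as covariates, subsets, each replicate left out, and adjustment over 19407 genes. The members and lists were chosen with earlier results of these data known. By rule, values are printed for up to 5 members per role with the largest change, for 16 members fixed by name where listed, and for the 3 genes of each list that ranked first by adjusted p-value. A member and a gene of another list are counted but not reported by name here. Other genes were named after their values were seen. Positions are 1-based on GRCm38, and 41 of 44 members have the same bounds in GENCODE M21. Promoters are from RefSeq (GRCm38.p6).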

Additional observations from a re-analysis of the deposited data

How the results depend on the processing

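The count of members past the threshold was 43 and lay between 39 and 44 with other factors, filters, tools, covariates, adjustment over 19407 genes or the lower run of animals alone. Leaving out 1 replicate at a time gave 37 to 44, from 5792 to 6132 over all listed genes. Requiring a log2 fold change of at least 1 moved the counts to 22 members, 7 higher and 15 lower, and to 2806 of all listed genes. Among females alone 8 members were called higher. For the genotype-by-sex term 0 members were called under every alternative run, and without the only male control there is no value. The direction of a member changed in 0 of 792 combinations of gene and setting. In 47 the call was lost and in 4, all of Dusp7, it was gained, and 27 genes kept their call throughout. The lost calls were most frequent in Klf10 (14 of 18 settings) and Fosl1 (10 of 18), whose loss with the replicate block was at adjusted p-values of 0.132 and 0.0969. The sample numbers were not taken as pairs in the main fit. Deviations from the group means correlated at -0.19, 0.13 and -0.10 for numbers 1, 2 and 3. With so few libraries per group, these correlations cannot decide whether animals were paired. The titles also hold the letters A, B and C for numbers 1, 2 and 3, and KA 4 shares C. The labels do not explain these letters. With the number as a replicate block, which leaves KA 4 without a control in its block, 40 members and 5749 of all listed genes were called. The cause of these changes was not tested. With 3 and 4 libraries, control levels below 100 normalised reads, as in Batf, Klf7 and Dusp4, limit precision.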

Other observations

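The genes in the next sentences were chosen after their values were seen. Atf4, a translationally controlled activator of amino acid response genes, had 2491, 3198 and 3509 normalised reads in the 3 controls and 6525, 5709, 5183 and 4479.8 in the 4 KA libraries, all KA libraries above all controls, at a log2 fold change of 0.70 (SE 0.15, edgeR adjusted p = 0.00169). Its relative Atf5 was higher at 1.76. Ddit3, often induced with them, was lower, with 238, 281 and 273 normalised reads in the 3 controls and 165, 139, 218 and 151 in the 4 KA libraries and a log2 fold change of -0.78 (SE 0.20, edgeR adjusted p = 0.00436). Ppp1r15a, which reverses the translational arrest of this response, was lower as well, with a log2 fold change of -0.74 (SE 0.19, edgeR adjusted p = 0.00478) and KA 2 above control 1.

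Hlf, a clock-controlled bZIP factor, had 2591, 2583 and 2561 normalised reads in the 3 controls and 159, 287, 990.1 and 442 in the 4 KA libraries, at a log2 fold change of -2.57 (SE 0.51, edgeR adjusted p = 0.00186). Dbp had 3509, 2911 and 2468 normalised reads in the 3 controls and 347, 398, 1074 and 812 in the 4 KA libraries and Tef 8589.8, 8956 and 9936 normalised reads in the 3 controls and 1584, 1706, 4133 and 2831 in the 4 KA libraries. In Hlf, Dbp and Tef, KA 3 held the most and KA 1 the least among the KA libraries. Per1, a core clock repressor, had 6471, 6738 and 8777 normalised reads in the 3 controls and 2360.2, 4054, 4659 and 5833 in the 4 KA libraries, at a log2 fold change of -0.92 (SE 0.27, edgeR adjusted p = 0.00898), with KA 4 the highest KA library, as for Klf9. No test was made of these genes as a set.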
